A study of Homo sapiens with 8 samples.

Results

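The subject is a set of 9 genes that p53 switches on directly, followed across the 2 cell lines and the 2 vectors of an experiment in which the long noncoding RNA HOTAIR was overexpressed. They were taken by symbol, as CDKN1A, MDM2, GDF15, SESN1, TP53INP1, BBC3, FAS, ZMAT3 and RRM2B. The list was made with earlier results of these data known, so it was not blind to them. All 9 were found among the 13771 genes of the deposited expression table. RNA was sequenced from MCF10A, an immortal breast epithelial cell line that does not form tumours, and from DCIS.COM, a line derived from the MCF10A lineage that forms lesions like ductal carcinoma in situ in mice. The 4 groups were MCF10A pCDH-empty, MCF10A pCDH-HOTAIR, DCIS.COM pCDH-empty and DCIS.COM pCDH-HOTAIR, with 2 libraries each. In every group the cells had been stably transduced with a lentiviral pCDH vector and selected with puromycin at 10 µg/ml, so the controls carried the empty vector and had seen the same drug. Both culture media held 5% horse serum, and only the MCF10A medium is described with EGF, hydrocortisone, insulin and cholera toxin, so the cell line and its medium cannot be told apart. Nothing in the sources used here says that the 2 libraries of a group came from separate cultures or from separate transductions, and the p-values below then measure only the spread between these libraries.

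The p53 protein is a transcription factor that is kept scarce in unstressed cells and builds up after DNA damage, oncogene activity or nutrient shortage. It binds DNA as a tetramer at a response element made of a pair of half-sites and raises the transcription of genes that halt the cell cycle, repair DNA, retune metabolism or kill the cell. MDM2, itself a target, marks p53 for destruction and closes a negative feedback loop, and MDM4 blocks the activity of p53 as a partner of MDM2. Since p53 is controlled largely at the protein level, its targets are often read as a group to gauge its activity, although each of them also answers to other transcription factors.

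The promoters of the targets were searched first for the element that makes them targets. The element sought was the p53 response element with 2 adjacent half-sites of 10 bases, no spacer, the central C and G of each half-site intact and at most 3 mismatches over 20 bases. The element is a palindrome, so a match counts for both strands. The windows were RefSeq promoters (250 bases before to 50 bases after each start site, taken from the GRCh38.p14 table), and they were placed on GRCh37, the build of the expression data, by exact match. Windows were on hand for 7 of the 9 genes, TP53INP1 and RRM2B being the other two, and 4 of these 7 held a match. Among the 27305 genes with a window, 1.37% held a match. The sequences of the 3 matches that lie upstream of a start site and of the match after the start of GDF15 are shown because p53 acts on its targets through elements of this kind; capitals mark the matched 20 bases, and all are written in the direction of transcription.
MDM2 (chr12:69202633-69202767, plus strand, inside an intron of 6 annotated transcripts): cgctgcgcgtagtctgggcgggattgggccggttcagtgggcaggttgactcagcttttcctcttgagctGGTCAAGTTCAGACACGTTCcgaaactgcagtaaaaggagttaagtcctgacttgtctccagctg
FAS (chr10:90750996-90751130, plus strand): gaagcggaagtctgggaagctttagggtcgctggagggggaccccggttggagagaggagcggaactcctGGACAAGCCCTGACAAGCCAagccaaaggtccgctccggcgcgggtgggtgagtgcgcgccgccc
SESN1 (chr6:109330192-109330310, minus strand): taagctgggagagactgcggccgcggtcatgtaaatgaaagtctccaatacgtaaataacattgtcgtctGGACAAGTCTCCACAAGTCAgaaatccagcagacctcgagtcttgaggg
GDF15 (chr19:18496996-18497015, plus strand): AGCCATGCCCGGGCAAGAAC

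The matches in MDM2 and FAS had 2 mismatches each, and those in SESN1 and GDF15 had 3 each. The match in MDM2 lay at an internal start site of the gene, with its first base 94 or 101 bases before the 2 annotated starts there. In FAS the match began 122 bases before a start site and fell in an exon of 2 of the 12 transcripts that span it. In SESN1 it began 49 bases before a start site and outside every annotated exon. In GDF15 it began 28 bases after the start site and lay in exons of 3 of the 5 annotated transcripts. The windows of CDKN1A, BBC3 and ZMAT3 held no match, which says only that these letters are not in those windows.

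The deposited values were log2 CPM (read counts scaled to a common library size, on a log2 scale), and the reads behind them could be recovered as whole numbers, 19306864 to 34884841 per library. HOTAIR, the gene the vector carries, was read 45 and 40 times in MCF10A pCDH-empty and 4614 and 4827 times in MCF10A pCDH-HOTAIR, and 119 and 140 times against 7166 and 6385 times in DCIS.COM, so the libraries followed their labels. All 8 epithelial markers were in the table, whereas 0 of 5 fibroblast and 0 of 2 adipocyte markers were in the table, only CD68 of 4 leukocyte markers and only PECAM1 of 3 endothelial markers. The 2 lines differed in these markers. The basal keratins were higher in MCF10A, KRT5 at 4063 to 4501 CPM against 674 to 818, whereas EPCAM, at 53.7 to 69.8 against 314 to 370 CPM, KRT8, KRT18 and ITGB4 were higher in DCIS.COM, and the sum of all 8 was 10820 to 12160 against 7516 to 9456. There were 19.6 to 23.9 against 4.29 to 5.89 CPM of CD68, and 1.70 to 2.69 against 10.1 to 13.3 CPM of PECAM1, and the part of these markers in the differences between the lines was not tested. The library DCIS.COM pCDH-empty 1 stood apart from its partner. The SD of the difference between the 2 DCIS.COM pCDH-empty libraries was 0.394 on the log2 scale, against 0.190 to 0.254 within the other 3 groups, and 18.9% of its reads fell on the signal recognition particle RNA genes RN7SL1 and RN7SL2, which are close copies of each other, against 11.1% to 15.0% in the other 7 libraries. Across 13148 genes the difference between these 2 libraries rose with the GC content of the gene (Pearson r = 0.454, against 0.00469 to 0.0406 in the other groups), a description over genes that share both libraries. Of the 9 targets, 6 are GC-poor, with 37.5% to 42.9% GC in their exons, and each of these was lower in library 1 than in library 2. The differences of the 9 targets that rest on DCIS.COM pCDH-empty are therefore given also without library 1 and after a correction of each library for GC content.

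**Figure D1:**
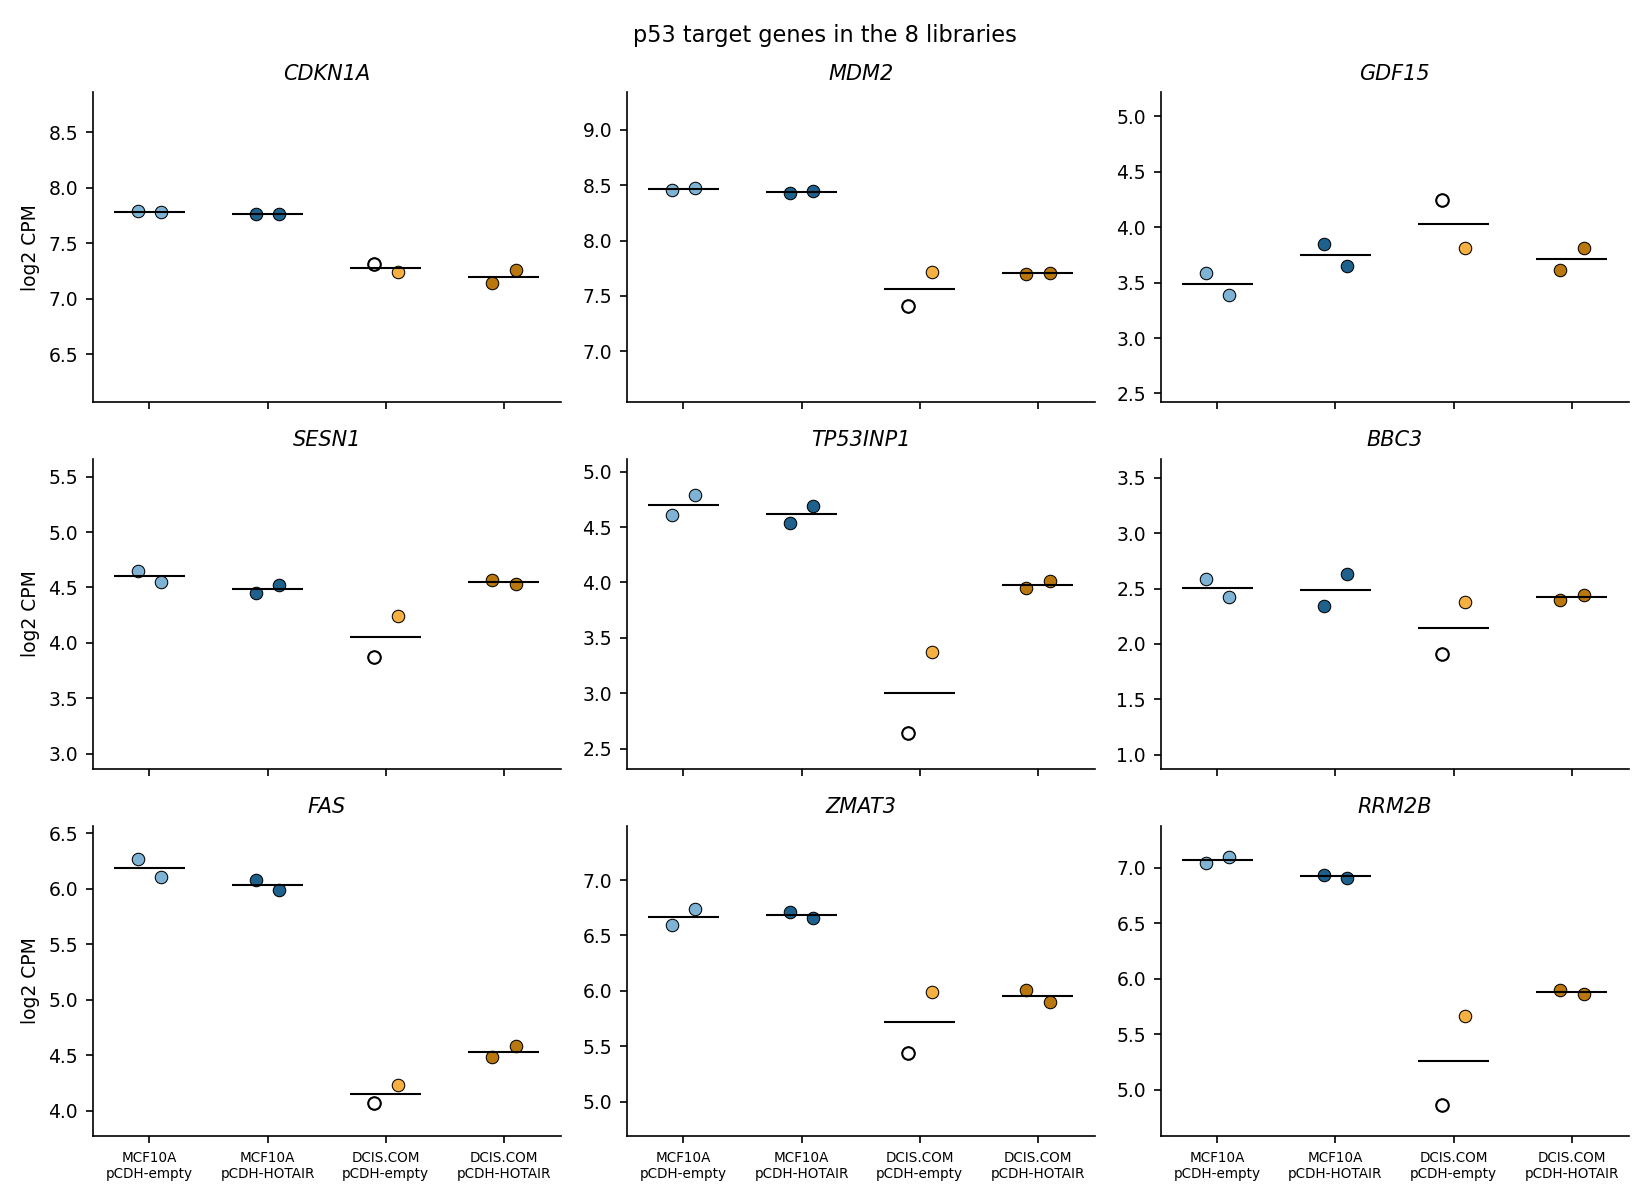
Expression of the 9 p53 targets in each library, in log2 CPM on the vertical axis, with 2 libraries for each of the 4 groups and a line at the group mean. Every panel spans the same number of log2 units, and the open circle is DCIS.COM pCDH-empty 1. FAS, RRM2B, TP53INP1, MDM2, ZMAT3 and CDKN1A sit lower in all 4 DCIS.COM libraries than in all 4 MCF10A libraries. The share of all genes that do so was not counted. Between the empty-vector groups alone, 40.9% of all genes were lower in DCIS.COM without overlap. The empty-vector libraries of DCIS.COM lie farthest apart for RRM2B and TP53INP1.

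The 9 targets were expressed over a wide range in both lines. As these are bulk samples, fewer cells that express a gene and less RNA per cell cannot be told apart. Per kilobase of exon, CDKN1A, the cyclin-dependent kinase inhibitor p21 that halts the cell cycle, was the highest of the 9 in all 4 groups, at 73.6 ± 0.06 RPKM (reads scaled by exon length and library size; SD, n = 2) in MCF10A pCDH-empty and 51.8 ± 1.79 in DCIS.COM pCDH-empty. MDM2 came second in all 4 groups, with 42.5 ± 0.18 and 22.9 ± 3.55 on the same scale in these 2 groups. In MCF10A pCDH-empty the order then ran RRM2B (24.9), FAS (20.5), ZMAT3 (8.996), GDF15 (5.36), TP53INP1 (4.597), SESN1 (3.32) and BBC3 (1.76), and no neighbours in this order overlapped between their 2 libraries. In DCIS.COM pCDH-empty the order was GDF15 (7.88), RRM2B (7.37), FAS (4.98), ZMAT3 (4.74), SESN1 (2.29), TP53INP1 (1.45) and BBC3 (1.39). There GDF15 overlapped with RRM2B, FAS with ZMAT3 and TP53INP1 with BBC3. BBC3, which encodes the death-promoting protein PUMA, was the lowest of the 9 in all 4 groups. The order depends on the exon lengths, which came from another annotation than the read counts. In CPM, without scaling by length, MDM2 was above CDKN1A in all 4 groups. The means were 352.8 against 220.5 in MCF10A pCDH-empty and 190.4 against 155.1 in DCIS.COM pCDH-empty.

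The effect of HOTAIR on these genes in MCF10A was asked first. In this line 0 of the 9 targets were called, a call being a Benjamini-Hochberg adjusted p under 0.05 by limma together with a fold change of at least 1.5. Over all genes 0.0218% were called, 3 genes in all, so few calls were to be had in this comparison. At an unadjusted p under 0.05 there were 0 of the 9 as well, beside 7.28% of all genes, and limma-voom on the recovered reads also called 0. The difference between the 2 DCIS.COM pCDH-empty libraries enters the shared spread, and without library 1 the SE of RRM2B fell from 0.213 to 0.0402 and that of MDM2 from 0.0968 to 0.0310. FAS and RRM2B were then lower at an unadjusted p under 0.05, as 1312 of all genes were, and 0 of the 9 were called. The log2 fold changes in MCF10A of FAS (-0.15), RRM2B (-0.15) and GDF15 (0.26) did not change, as no library of this line was left out. With HOTAIR 2 of the 9 were higher and 7 lower, and their median log2 fold change was -0.02 against -0.0055 over all genes; limma-voom gave 5 higher, 4 lower and a median of 0.01, against 0.03 over all genes.

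CDKN1A had the narrowest interval of them in MCF10A. Its log2 CPM was 7.79 and 7.78 with the empty vector and 7.76 and 7.76 with HOTAIR, a difference of -0.02 (95% interval -0.17 to 0.13). MDM2 stood at 8.46 and 8.47 against 8.43 and 8.45, a difference of -0.02 (95% interval -0.25 to 0.20). For both genes the HOTAIR libraries lay just below the empty-vector libraries, by far less than these intervals span. The differences farthest from 0 were those of GDF15, a secreted stress cytokine, at 0.26 (95% interval -0.12 to 0.63), and of FAS, the death receptor, at -0.15 (95% interval -0.36 to 0.06). The groups did not overlap for 1 target that was higher and 5 that were lower, where 22.5% and 24.8% of all genes did the same.

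In DCIS.COM the same comparison was made, and the SE of each target is the same in both lines because the fit shares 1 spread over all 4 groups. In DCIS.COM pCDH-empty the SD of log2 CPM was 0.517 for TP53INP1 and 0.571 for RRM2B. In the other groups it was 0.0436 to 0.123 and 0.0194 to 0.0475. For these genes the closer groups therefore narrow the SE and the intervals used in DCIS.COM. Again 0 of the 9 targets were called, against 0.0871% of all genes (12 genes, all higher). At an unadjusted p under 0.05 there were 4 targets, all of them higher with HOTAIR, and 9.08% of all genes were higher at that level. They were TP53INP1, RRM2B, SESN1 and FAS. In a limma fit of DCIS.COM alone 3 of the 9 targets were at that level, beside 1203 of all genes. limma-voom called 0 of the 9. Without DCIS.COM pCDH-empty 2, where 1403 genes were called, TP53INP1 (1.34), RRM2B (1.03) and SESN1 (0.68) were called higher, with log2 fold changes in brackets. Of the 9, 7 were higher and 2 lower, and their median log2 fold change was 0.27 against 0.01 over all genes. The groups did not overlap for 5 targets that were higher and for 0 that were lower, where 24.7% and 24.5% of all genes did the same.

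TP53INP1, a nuclear protein that promotes autophagy and cell death, differed the most. Its log2 CPM was 2.64 and 3.37 with the empty vector and 3.95 and 4.01 with HOTAIR. Both HOTAIR libraries were above both controls, and library 1 of the controls was the lowest of all 8. The difference was 0.98 ± 0.21 (SE) on the log2 scale, a fold change of 1.97, with an adjusted p of 0.156 by limma. Against library 2 alone the difference was 0.61 and the adjusted p 0.0339, a call, and after GC correction of all libraries it was 0.82 with an adjusted p of 0.0440, also a call. Under these settings 0.436% and 0.35% of all genes were called, and after GC correction the calls over all genes were 39 higher and 7 lower. Over the 10 alternatives that keep all libraries the adjusted p of TP53INP1 ran from 0.0440 to 0.553.

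RRM2B, the p53-inducible subunit of ribonucleotide reductase that supplies nucleotides for DNA repair, stood at 4.86 and 5.66 with the empty vector and at 5.90 and 5.86 with HOTAIR. Both HOTAIR libraries were higher, but the 2 controls differed from each other by more than library 2 differed from either HOTAIR library. The log2 fold change was 0.62 ± 0.21 (SE; adjusted p = 0.246 by limma), and it fell to 0.40 after GC correction and to 0.22 without library 1 (adjusted p = 0.0898). SESN1, a stress protein that restrains mTORC1 signalling, was at 3.87 and 4.24 against 4.57 and 4.53, with the HOTAIR libraries close together above both controls. Its log2 fold change was 0.49 ± 0.12 (SE; adjusted p = 0.194), with 0.38 after GC correction and 0.31 without library 1.

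FAS had the smallest difference between the 2 control libraries of these 4 targets. It stood at 4.07 and 4.23 with the empty vector and at 4.48 and 4.58 with HOTAIR, and the groups did not overlap. The log2 fold change was 0.38 ± 0.09 (SE; adjusted p = 0.184 by limma), with 0.31 after GC correction and 0.30 without library 1. The adjusted p stayed above 0.05 in all 3 settings.

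For the remaining targets the 2 groups of DCIS.COM lay close together or overlapped. CDKN1A had log2 CPM of 7.31 and 7.24 against 7.14 and 7.26, a difference of -0.08 (95% interval -0.22 to 0.07), with -0.04 both without library 1 and after GC correction. MDM2 had 7.41 and 7.72 against 7.70 and 7.71, so that 3 of the 4 libraries were alike and library 1 of the controls alone was low; its difference of 0.14 turned to -0.02 both without library 1 and after GC correction. ZMAT3, an RNA-binding protein that regulates splicing, had a difference of 0.24, which became -0.04 without library 1 and 0.095 after GC correction. BBC3 had a difference of 0.27 and was left with 0.04 without library 1, while GDF15 was at -0.32 and then at -0.10. After GC correction BBC3 was at 0.31 and GDF15 at -0.29. Without library 1 the median over the 9 targets was 0.04 in place of 0.27, and after GC correction it was 0.31.

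**Figure D2:**
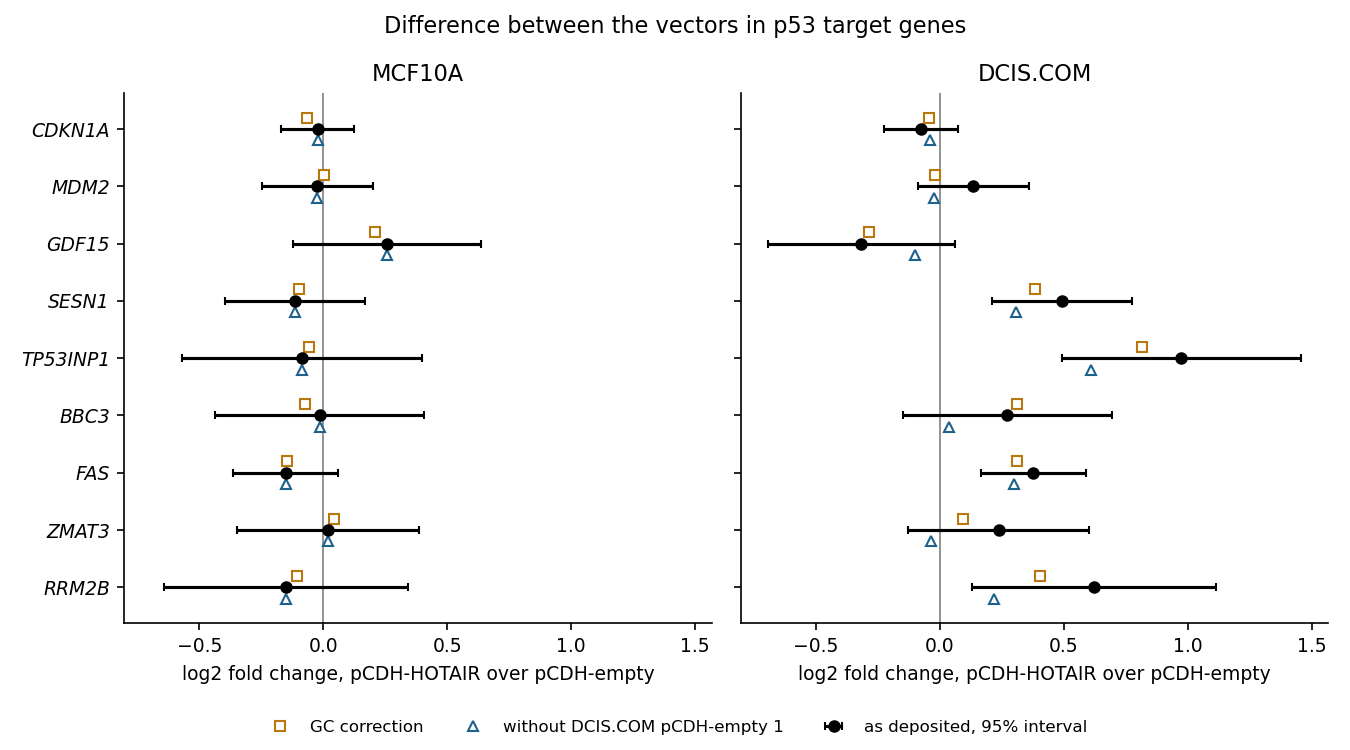
Log2 fold change of pCDH-HOTAIR over pCDH-empty for the 9 p53 targets in MCF10A and in DCIS.COM. Black points are the values as deposited with 95% intervals from limma, which use the spread shared over all 4 groups. Squares are after GC correction and triangles are without DCIS.COM pCDH-empty 1. In MCF10A every interval includes 0, and in DCIS.COM those of SESN1, TP53INP1, FAS and RRM2B do not.

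The dependence on library 1 followed the GC content of the targets in part. RRM2B (37.5% GC), TP53INP1 (39.4%), ZMAT3 (39.95%), SESN1 (41.2%), MDM2 (39.5%) and FAS (42.9%) were lower in library 1 than in library 2 by 0.81, 0.73, 0.55, 0.37, 0.32 and 0.16 on the log2 scale. Over all genes below 40% GC the median of this difference was -0.35, and from 60% GC upwards it was 0.17. The difference of MDM2 was near the median of such genes, and those of RRM2B and TP53INP1 were beyond it. GDF15 (59.99% GC) was higher in library 1, by 0.44, whereas BBC3 (64.4% GC) was lower, by 0.47, on the other side from genes of like GC content. In DCIS.COM the median log2 fold change of HOTAIR over empty was 0.18 for genes below 40% GC and -0.06 for those from 60% upwards, and in MCF10A it was -0.05 and 0.05. The part of GC content in the differences of the targets was not tested beyond the corrected values given here.

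**Figure D3:**
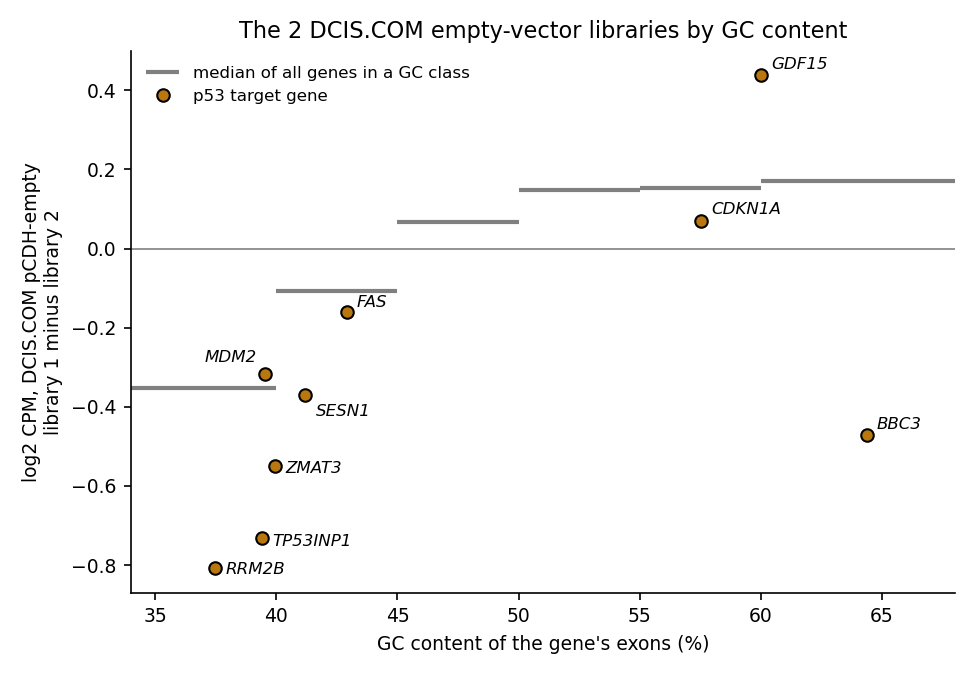
Difference in log2 CPM between the 2 DCIS.COM pCDH-empty libraries (1 minus 2) against the GC content of the exons in percent. Circles are the 9 targets and grey bars the medians of all genes in 6 GC classes, the outer classes being drawn to the edge of the plot. The medians run from -0.35 below 40% GC to 0.17 from 60% GC, and BBC3 lies far below its class.

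Whether HOTAIR acted on the targets differently in the 2 lines was tested as an interaction, the difference in DCIS.COM minus that in MCF10A. None of the 9 passed an adjusted p of 0.05 in limma, where 0.0436% of all genes did (6 genes); 5 of the 9 had an unadjusted p under 0.05, beside 10.5% of all genes. limma-voom also called 0 of them. TP53INP1 had an interaction of 1.06 on the log2 scale (95% interval 0.38 to 1.75, adjusted p = 0.385 by limma), RRM2B 0.77, SESN1 0.61, FAS 0.53 and GDF15 -0.57. Without DCIS.COM pCDH-empty 1 these values were 0.70, 0.37, 0.42, 0.45 and -0.35, after GC correction they were 0.87, 0.51, 0.48, 0.46 and -0.49, and without that library the adjusted p of RRM2B was 0.05003, just above the threshold. Without library 2 in place of library 1, 7 of the 9 passed, but 4414 of all genes did so as well.

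The difference between the cell lines was larger than that between the vectors for most targets. Between the empty-vector groups 5 of the 9 targets were called, all lower in DCIS.COM, where 23.8% of all genes were called lower and 46.3% in either direction. The 5 were FAS, RRM2B, TP53INP1, ZMAT3 and MDM2. These 5 were also called lower without DCIS.COM pCDH-empty 1, after GC correction and between the pCDH-HOTAIR libraries, settings under which 22.5%, 22.1% and 21.7% of all genes were called lower. The median log2 fold change of DCIS.COM over MCF10A was -0.90 over the 9 targets and -0.00012 over all genes. Without overlap 8 of the 9 were lower and 1, GDF15, was higher, where 40.9% and 40.7% of all genes did the same.

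FAS showed the widest gap. Its log2 CPM was 6.27 and 6.11 in MCF10A pCDH-empty and 4.07 and 4.23 in DCIS.COM pCDH-empty, and no DCIS.COM library of either vector came near an MCF10A library. The log2 fold change was -2.04 ± 0.09 (SE), 4.10-fold lower in DCIS.COM, with an adjusted p of 4.19e-07 by limma. The pCDH-HOTAIR libraries of the 2 lines, which share no sample with that comparison, gave -1.51.

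RRM2B stood at 7.04 and 7.10 in MCF10A pCDH-empty against 4.86 and 5.66 in DCIS.COM pCDH-empty, all below. Its log2 fold change was -1.81 ± 0.21 (SE; adjusted p = 0.000116 by limma), or -1.41 without library 1 and -1.04 between the pCDH-HOTAIR libraries. TP53INP1 stood at 4.61 and 4.79 against 2.64 and 3.37, also without overlap. Its log2 fold change was -1.70 ± 0.21 (SE; adjusted p = 0.000155), or -1.33 without library 1. Between the pCDH-HOTAIR libraries it was -0.63, the largest shift of the 9 targets from one vector to the other.

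The feedback regulator MDM2 and the splicing regulator ZMAT3 differed less, and their values changed less between the vectors. MDM2 had 8.46 and 8.47 in MCF10A pCDH-empty against 7.41 and 7.72 in DCIS.COM pCDH-empty, a log2 fold change of -0.90 ± 0.10 (SE; adjusted p = 7.00e-05 by limma), or -0.74 both without library 1 and between the pCDH-HOTAIR libraries. ZMAT3 had 6.59 and 6.74 against 5.44 and 5.99, with a log2 fold change of -0.95 ± 0.16 (SE; adjusted p = 0.000899), or -0.67 without library 1 and -0.73 between the pCDH-HOTAIR libraries. Both genes were lower in every DCIS.COM library than in every MCF10A library.

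CDKN1A and SESN1 passed the adjusted p but not the fold of 1.5. CDKN1A was at 7.79 and 7.78 against 7.31 and 7.24, clearly lower in DCIS.COM at a log2 fold change of -0.51 ± 0.06 (SE; adjusted p = 0.000174 by limma), with -0.56 between the pCDH-HOTAIR libraries. SESN1 was at 4.65 and 4.55 against 3.87 and 4.24, a log2 fold change of -0.54 ± 0.12 (SE; adjusted p = 0.00458), and the pCDH-HOTAIR libraries of the 2 lines differed by 0.06 in the other direction. BBC3 had a log2 fold change of -0.35 with an adjusted p of 0.119, and its DCIS.COM library 2, at 2.38, was just below the lower MCF10A library, at 2.42.

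GDF15 alone went the other way. It stood at 3.59 and 3.39 in MCF10A pCDH-empty against 4.25 and 3.81 in DCIS.COM pCDH-empty, higher in both DCIS.COM libraries. The log2 fold change was 0.54 ± 0.16 (SE; adjusted p = 0.0183 by limma, fold 1.45), below the fold of a call. Without library 1 it was 0.32 with an adjusted p of 0.0637, and the pCDH-HOTAIR libraries gave -0.03. After GC correction the log2 fold changes between the lines were -1.96 for FAS, -1.51 for RRM2B, -1.47 for TP53INP1, -0.75 for ZMAT3 and -0.68 for MDM2. They were -0.54 for CDKN1A, -0.42 for BBC3, -0.39 for SESN1 and 0.51 for GDF15, and without library 1 FAS was at -1.96, CDKN1A at -0.54, SESN1 at -0.36 and BBC3 at -0.12. GDF15 was called higher with quantile normalization (0.62), a setting in which 6312 of all genes were called in either direction. Its log2 fold change was 0.64 without MCF10A pCDH-empty 1 and 0.76 without DCIS.COM pCDH-empty 2. SESN1 was at -0.59 without MCF10A pCDH-empty 2 and at -0.73 without DCIS.COM pCDH-empty 2, and BBC3 was at -0.59 without DCIS.COM pCDH-empty 2.

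**Figure D4:**
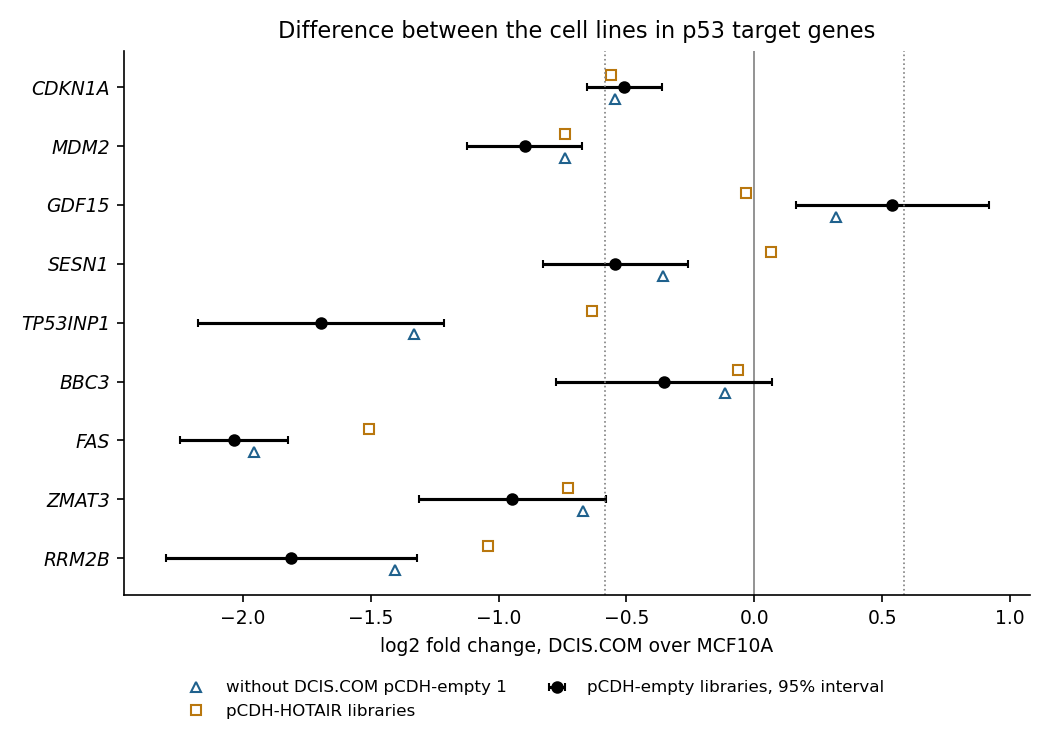
Log2 fold change of DCIS.COM over MCF10A for the 9 p53 targets. Black points are the pCDH-empty libraries with 95% intervals from limma, triangles the same without DCIS.COM pCDH-empty 1, and squares the pCDH-HOTAIR libraries; dotted lines mark a fold of 1.5. FAS, RRM2B, TP53INP1, ZMAT3 and MDM2 lie beyond the left dotted line at every setting, from -2.04 to -0.63, whereas GDF15 and SESN1 change side between the vectors.

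Regulators and relatives of p53 were compared between the lines as well. MDM4 was at 4.15 and 4.09 against 4.97 and 5.07, a called log2 fold change of 0.90 ± 0.08 (SE; adjusted p = 2.07e-05 by limma). TP63, a relative of p53 that marks basal breast epithelium and binds much the same element, was at 3.80 and 3.56 against 4.28 and 4.59, a called log2 fold change of 0.75 ± 0.13 (SE; adjusted p = 0.000955). Both were higher in DCIS.COM without overlap, and after GC correction their log2 fold changes were 1.03 and 0.87, or 0.96 and 0.90 without DCIS.COM pCDH-empty 1.

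Of 20 regulators and partners of p53, 18 were in the table, TP73 and CDKN2A being the other two. Between the lines 4 were called higher in DCIS.COM and 1 lower, with a median of 0.19, where 22.5% and 23.8% of all genes were called, so the share called higher was at the background. After GC correction 5 were called higher and 1 lower, beside 3121 and 2907 of 13148 genes. Without DCIS.COM pCDH-empty 1 their median was 0.14. Beside MDM4 and TP63, the regulators called on the values as deposited were PRKDC, TP53BP1 and HIPK2. PRKDC, the catalytic subunit of the DNA damage kinase DNA-PK, was at 0.78. TP53BP1, a DNA damage adaptor, was at 0.68, and HIPK2, a kinase that activates p53, at -0.80. PRKDC and TP53BP1 were no longer called without MCF10A pCDH-empty 1 (0.42 and 0.53) or between the pCDH-HOTAIR libraries (0.31 and 0.53). With HOTAIR 0 of the 18 were called in either line by limma or by limma-voom, and in limma 2 in MCF10A had an unadjusted p under 0.05, beside 7.28% of all genes. In DCIS.COM 1 was higher and 4 lower at that level, beside 9.08% and 8.41% of all genes. The smallest p-values in MCF10A were those of TP63 (0.42) and PPM1D (-0.26), a phosphatase that switches p53 signalling off, and in DCIS.COM those of CREBBP (-0.43), an acetyltransferase, and TP63 (0.44), with log2 fold changes in brackets.

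A longer list of 67 other direct targets of p53, of which 66 were in the table, was read beside the 9. Between the lines 32 of the 66 were called lower in DCIS.COM and 8 higher, with a median of -0.53, beside 23.8% and 22.5% of all genes. After GC correction 32 were called lower and 9 higher, beside 2907 and 3121 of 13148 genes. Without DCIS.COM pCDH-empty 1 their median was -0.47. The calls were spread over the roles. For cell cycle arrest 5 of 9 were called lower and 1 higher, for apoptosis 9 of 15 and 1, for DNA repair 2 of 7 and 0, for metabolism 7 of 13 and 1, and for signalling, membrane and matrix 9 of 22 and 5. The smallest p-values were those of LIF, a cytokine, at 4.61, TRIM22, an interferon- and p53-inducible antiviral protein, at -4.86, TP53I3, an oxidoreductase also called PIG3, at -3.35, CES2, a carboxylesterase, at -2.64, and SERPINB5, the epithelial serpin maspin, at -2.45.

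With HOTAIR in MCF10A, 0 of these 66 were called by limma or by limma-voom, and in limma 5 were higher and 3 lower at an unadjusted p under 0.05, beside 4.41% and 2.88% of all genes. Their median was -0.00043, or 0.03 with limma-voom. The smallest p-values were those of TNFRSF10D, a decoy receptor for the death ligand TRAIL, at 0.35, and PCNA, the sliding clamp of DNA replication, at -0.31. In DCIS.COM 1 of the 66 was called, TRIM22, beside 0.0871% of all genes. At an unadjusted p under 0.05 by limma 24 were higher and 4 lower, beside 9.08% and 8.41% of all genes. Their median was 0.12, and it was 0.13 without library 1 and 0.14 after GC correction. With limma-voom 2 of the 66 were called, beside 10 of all genes. After GC correction 3 were called, TRIM22, KITLG, the ligand of the receptor KIT, and INPP5D, a lipid phosphatase, beside 0.35% of all genes. Without library 1 the log2 fold change was 0.67 for KITLG and 0.93 for INPP5D. KITLG had a log2 fold change of 0.92 (adjusted p = 0.102 by limma), or 0.74 after GC correction, and INPP5D one of 0.75 (adjusted p = 0.119), or 0.79 after GC correction. TRIM22 stood at 1.52 and 1.65 with the empty vector and 2.79 and 2.82 with HOTAIR in DCIS.COM, both HOTAIR libraries far above both controls. Its log2 fold change of 1.22 had an adjusted p of 0.00240, although its level there was still far below the 6.26 to 6.44 of the MCF10A libraries. Without either of the DCIS.COM pCDH-HOTAIR libraries the adjusted p was above 0.05 (0.0736 without library 1), and a fit of DCIS.COM alone gave 0.553.

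Genes that p53 lowers by way of CDKN1A and the DREAM complex, a repressor of cell cycle genes, were the last group. All 15 were in the table. Between the lines 10 of the 15 were called higher in DCIS.COM and 0 lower, with a median of 0.76, beside 22.5% of all genes called higher. After GC correction 11 were called higher with a median of 0.75, beside 3121 of 13148 genes called higher. Without DCIS.COM pCDH-empty 1 their median was 0.65. The smallest p-values were those of CCNB2 (1.14), BIRC5 (1.14), BUB1 (0.74), AURKA (0.76) and CDC25C (1.33), genes of mitotic entry, the spindle checkpoint and mitotic kinases, with log2 fold changes in brackets. With HOTAIR 0 of the 15 were called by limma or by limma-voom in either line. In MCF10A 12 of 15 were lower with a median of -0.09, where 7128 of 13771 genes were lower with a median of -0.0055. Of the 15, 2, KIF23 and BUB1, were lower at an unadjusted p under 0.05 by limma, beside 2.88% of all genes. In DCIS.COM 9 of 15 were lower with a median of -0.05, where 6569 of all genes were lower with a median of 0.01. With limma-voom the median was 0.0050, against 0.07 over all genes. FOXM1 and MYBL2 were lower at that level by limma, beside 8.41% of all genes. After GC correction 13 of 15 were lower there with a median of -0.11, where 7201 of 13148 genes were lower with a median of -0.02. Of these, 5 were lower at an unadjusted p under 0.05 by limma, beside 1795 of all genes. Without library 1 there were 11 lower with a median of -0.05, where 6829 of all genes were lower.

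**Figure D5:**
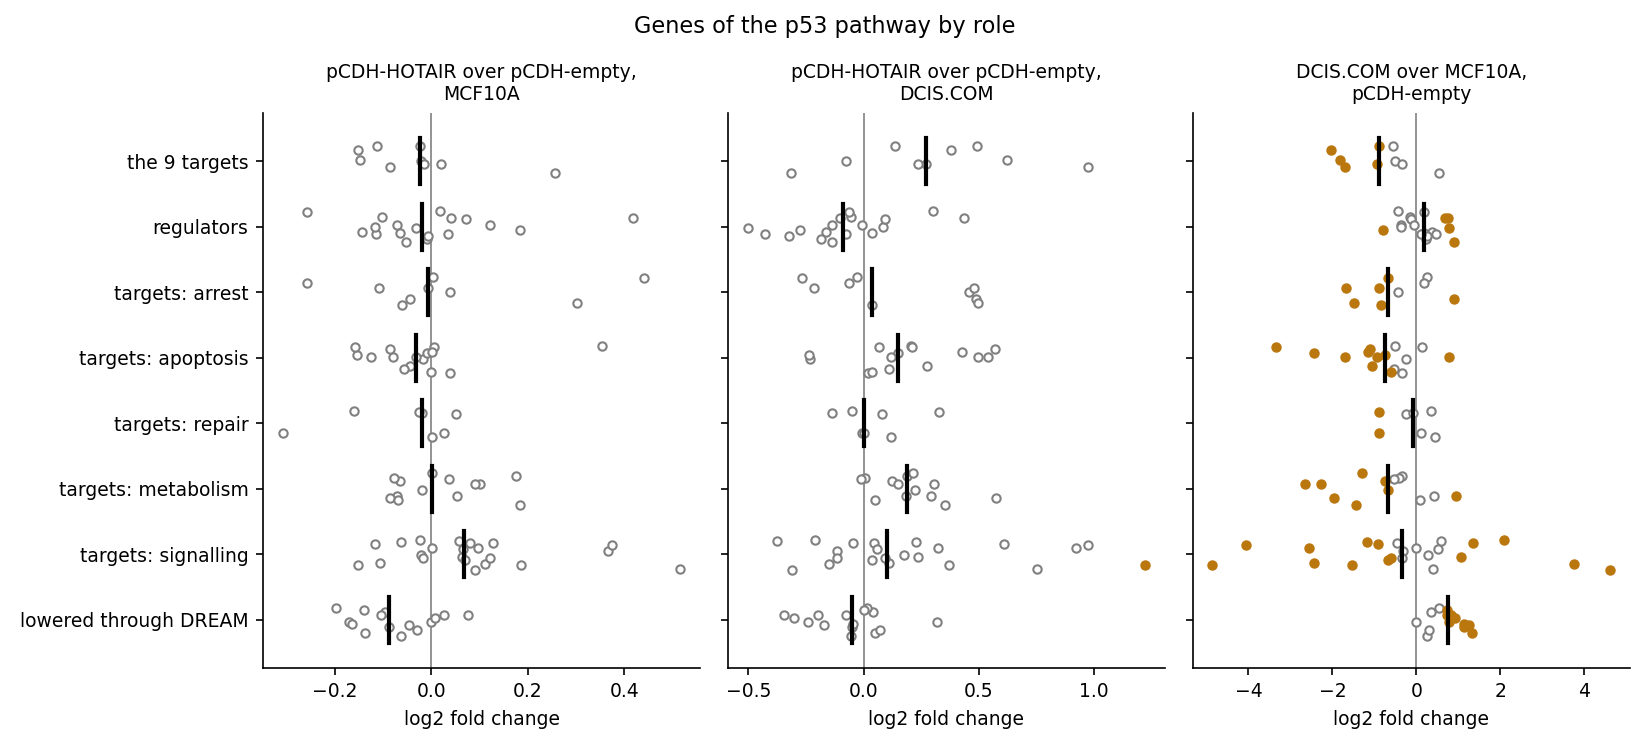
Log2 fold changes of genes of the p53 pathway by role in the 2 vector comparisons and between the cell lines. Each circle is a gene, filled where it was called by limma, and the bar is the median of a row; the horizontal axes differ between the panels. Between the lines the medians of the 9 targets (-0.90) and of the arrest, apoptosis, metabolism, signalling (-0.33) and repair (-0.09) targets lie below 0. That of the DREAM genes (0.76) lies above 0. In the vector panels TRIM22 alone is filled.

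The pattern of each target over the 8 libraries was last compared with that of every other gene at a mean of at least 1 CPM, after the mean of each cell line had been taken off. The most alike genes were UQCRFS1 for CDKN1A (r = 0.981), CISD2 for MDM2 (0.997), IGSF8 for GDF15 (0.988), BCAS2 for SESN1 (0.990) and ATXN3 for TP53INP1 (0.998). They were DNAH14 for BBC3 (0.986), SLC25A42 for FAS (0.989), TMF1 for ZMAT3 (0.991) and KLF3 for RRM2B (0.998). All of these are the highest of 13175 values over 8 libraries, among them DCIS.COM pCDH-empty 1, which stood apart from its partner. After GC correction r with the same gene was 0.283 for MDM2, -0.473 for ZMAT3 and 0.542 for CDKN1A. It was 0.991 for RRM2B, 0.959 for GDF15, 0.938 for FAS, 0.916 for SESN1, 0.894 for BBC3 and 0.887 for TP53INP1.

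Several of the genes overlap others on the opposite strand, among them CDKN1A with DINOL, MDM2 with CPM, FAS with ACTA2 and TP53INP1 with NDUFAF6. Whether strand was used in counting is not given in the sources used here, so reads of these partners may be held in the values above.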

How the data were processed

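The 8 RNA-seq libraries, 2 per group, came from ScriptSeq kits and paired-end runs. Per the paper's methods and the submitters' processing notes, Rsubread placed the reads on hg19, featureCounts assigned them to genes of the UCSC annotation, and edgeR scaled the totals. What the authors deposited is log2 CPM for 13771 genes, each above 0.5 CPM in at least 2 libraries. Of these, 343 had no symbol. No per-sample column was left unused (0).

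Values above a shared prior of 0.0717 CPM rose in equal steps, and 100% of them gave whole reads within a tolerance of 0.1. Differential expression was tested on the deposited log2 CPM with limma 3.58.1 in R 4.3.3 (4 group means, all 8 libraries, mean-variance trend, Benjamini-Hochberg adjustment over all genes). limma was chosen over the paper's count-based tool because the deposited unit is log2 CPM, and the recovered reads served only for an alternative. The interaction had no fold threshold. The fit was checked on simulated libraries, all drawn with the same setting for spread. That check therefore does not cover a library that stands apart from its partner. Positions, lengths and GC content were read from the GRCh37 version of GENCODE release 44, which covered 13148 genes (95.5%), and GC correction was a loess fit per library (span 0.4).

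The members and the gene lists were chosen with earlier results of these data known. The genes named were HOTAIR, the 9 targets, MDM4 and TP63, the called genes of each list up to 5 per comparison, or else the 2 with the smallest p, and the 1 most alike gene per target; 1 further gene is not reported here. The alternatives were GC correction, median centring, quantile normalization, pseudocounts of 0.1 and 1, a mean of at least 2 CPM, limma-voom on recovered reads, limma with no trend, a block for the replicate number, a fit for each line alone, other fold thresholds and each library left out. A fit without a library leaves a lone library in its group, which is then assumed to vary like the other groups. The GC correction together with the loss of DCIS.COM pCDH-empty 1, and the pCDH-HOTAIR libraries for the cell lines, were added after seeing the data. The chi-square per gene between the libraries of a group was 4.01 to 69.7, so they differed by more than the sampling of reads gives. Whether the libraries of a group came from the same RNA or culture cannot be told from it. Same-numbered libraries did not deviate together (r from -0.016 to 0.066), and the numbers were not used as pairs. Other steps ran in Python 3.11.15 with pandas 2.3.3, numpy 2.4.6 and scipy 1.17.1.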

Additional observations from a re-analysis of the deposited data

Results flagged for a closer look

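TRIM22, an antiviral gene of the longer list of p53 targets, is given here because the test of the difference between the lines passed the threshold. Its interaction was 1.37 on the log2 scale (adjusted p = 0.0208 by limma), with a log2 fold change of HOTAIR over empty of 1.22 in DCIS.COM and of -0.15 in MCF10A. The adjusted p was 0.0842 with limma-voom and 0.0592 with the replicate block, and it stayed under 0.05 only in 2 of the 8 fits that leave out a library. The interaction itself was 1.42 with limma-voom, 1.37 with the replicate block and 1.34 to 1.41 in the 6 fits that passed the threshold no longer.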

How the results depend on the processing

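Beside the 6370 calls between the lines, few genes were called, and those numbers moved with the settings. For HOTAIR over empty in MCF10A 3 genes were called, and the number was 6 with log2(CPM + 1), 11 with GC correction, 1 with separate fits, 1 at a log2 fold change of at least 1.5, and 52 with GC correction without DCIS.COM pCDH-empty 1. In DCIS.COM it was 12, and 46 with GC correction, 6 with no trend, 0 with separate fits (1203 at an unadjusted p under 0.05), 1 at the higher fold threshold and 56 with GC correction without DCIS.COM pCDH-empty 1. For the interaction it was 6, and 10 with log2(CPM + 1), 26 with GC correction, 108 with that correction without DCIS.COM pCDH-empty 1, 0 with no trend (1414 at an unadjusted p under 0.05) and 0 with limma-voom (1397). With the replicate block the numbers were 2 in MCF10A, 20 in DCIS.COM and 0 for the interaction (1342 at an unadjusted p under 0.05), and 0, 0 and 0 of the 9 targets were called. Between the lines the higher fold threshold left 2418 genes and 3 targets, and no fold threshold gave 8 targets. The other alternatives gave 5 targets, or 6 with quantile normalization.

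Leaving out 1 library gave 1 to 51 genes in MCF10A, 1 to 1403 in DCIS.COM, 0 to 4414 for the interaction and 6044 to 6941 between the lines. Of the 9 targets 0 were called in MCF10A, 0 to 3 in DCIS.COM, 0 to 7 for the interaction and 5 to 8 between the lines. The highest numbers in DCIS.COM and for the interaction came without DCIS.COM pCDH-empty 2, and those without DCIS.COM pCDH-empty 1 were 60 and 89 genes, with 1 and 0 targets; the controls are then a lone library. With GC correction 1 target, TP53INP1, was called in DCIS.COM, and also 1 with that correction without DCIS.COM pCDH-empty 1. The cause of these changes was not tested.

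Some single genes changed sign. In MCF10A limma-voom gave 0.012 for CDKN1A, 0.010 for MDM2 and 0.017 for BBC3, and MDM2 had 0.0041 with GC correction, alone or without DCIS.COM pCDH-empty 1. With 1 library left out, TP53INP1 ran from -0.17 to 0.00080, BBC3 from -0.16 to 0.13 and ZMAT3 from -0.058 to 0.096. In DCIS.COM MDM2 had -0.019 with GC correction and -0.033 with that correction without DCIS.COM pCDH-empty 1, where ZMAT3 had -0.047. With 1 library left out, MDM2 ran from -0.023 to 0.29 and ZMAT3 from -0.037 to 0.51. In the interaction CDKN1A had 0.021 and MDM2 -0.023 with GC correction, and MDM2 -0.037 and ZMAT3 -0.091 with that correction without DCIS.COM pCDH-empty 1. With 1 library left out, the interaction ran from -0.11 to 0.0049 for CDKN1A and from -0.056 to 0.49 for ZMAT3. Between the lines GDF15 had -0.034 and SESN1 0.064 in the pCDH-HOTAIR libraries.

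With 2 libraries per group the exact permutation test of a single gene cannot give a p below 0.333, so the tests rest on the spread shared over all groups and genes. BBC3, at 1.91 to 2.63 log2 CPM, is the target with the fewest reads.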
